A study of Mus musculus with 4 samples.

Results

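Hif1a, Epas1, Arnt, Vhl, Egln1, Egln2, Egln3 and Ddit4 are 8 genes of the pathway by which cells sense oxygen. They were taken by name, and are 8 of the 31053 gene rows of the count matrix. Each of the 8 had counts, and each reached 10 UMIs per 1000000 in at least 1 cell class. The matrix came from single cells of bone, so the genes could be followed from cartilage through hypertrophic chondrocytes (HCs) to osteoblasts (Obs), and in the vessels and blood cells around them.

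The study asked how HCs and the osteogenic cells that descend from them contribute to bone. The data held here came from 1 male mouse at postnatal day 6, and 2 tibiae of that animal were pooled into 1 library that was sequenced in 4 entries. The animal carried Col10a1Cre, Rosa26-Tdtomato, Irx3 +/Δ and Irx5 +/-, and was labelled as the Irx3/5 heterozygous control. Every cell compared below therefore shared this genotype, including the loss of 1 copy of Irx5 and of Irx3 in cells in which Cre had acted. Col10a1 drives the Cre in HCs, so that tdTomato marked HCs and their descendants (HC-derived cells), read here through WPRE, a sequence in the tdTomato transcript. The secondary ossification centres had been removed, and the tissue was diced and digested with enzymes before capture.

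In cells with oxygen, prolyl hydroxylases (PHD2, PHD1 and PHD3, the products of Egln1, Egln2 and Egln3) hydroxylate the HIF alpha subunits, and the von Hippel-Lindau protein (Vhl) then marks the subunits for degradation. When oxygen is short, the alpha subunits (HIF-1α from Hif1a, HIF-2α from Epas1) escape this, pair with ARNT and switch on genes for glucose use, vessel growth and survival. Egln1, Egln3 and Ddit4 are themselves known HIF target genes, and Ddit4 encodes REDD1, an inhibitor of mTORC1. The growth plate has no vessels, and HIF-1α is known to be needed for the survival of its inner chondrocytes. The alpha subunits are controlled mainly as proteins, which were not measured here.

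The members lie on separate parts of the mouse genome (GRCm38, GENCODE M21). The alpha subunit genes are Hif1a (ENSMUSG00000021109, chr12:73901375-73947530, plus strand, 15 exons) and Epas1 (ENSMUSG00000024140, chr17:86753700-86833410, plus strand, 16 exons). Their partner is Arnt (ENSMUSG00000015522, chr3:95434388-95497240, plus strand, 22 exons). Egln1 (ENSMUSG00000031987, chr8:124908587-124949324), Egln2 (ENSMUSG00000058709, chr7:27158658-27166802) and Egln3 (ENSMUSG00000035105, chr12:54178981-54203860) are on the minus strand with 5, 6 and 5 exons. Vhl (ENSMUSG00000033933, chr6:113623959-113631633, plus strand) and Ddit4 (ENSMUSG00000020108, chr10:59949669-59951834, minus strand) have 3 exons each. Hif1a, Epas1 and Arnt each overlap a predicted gene on their own strand in GENCODE, and the sources used here do not say how the authors' counting divided reads between them.

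HIF binds DNA at a core of the letters ACGTG or GCGTG. Only ACGTG was searched for here, so the matches below cover 1 form of the core. Promoters of 7 of the 8 genes were held in the RefSeq table (GRCm38.p6); Epas1 had no entry. In the 250 bases before the start, ACGTG on either strand was found in 5 of these 7 genes, against 16.6% of all 32851 promoters of the same length. It lay 135, 134 and 70 bases before the start of Hif1a, 68 before Egln1, 48 before 1 of the 2 starts of Egln2, 229 before Egln3 and 187 before Ddit4. Arnt and Vhl had no ACGTG, though the Arnt window holds a GCGTG, which was not counted. The search also counts the longer motif CACGTG, which 6.02% of promoters held and which other factors bind. The Hif1a matches at 135 and 134 bases are the 2 strands of 1 such CACGTG, and so mark 1 place in the DNA. Egln1 and Ddit4 varied widely over the classes, by 18.0-fold and 55.0-fold. The Ddit4 range, from 22 T or NK cells to macrophages at 1.75 CPM, rested on few UMIs at both ends. The promoter stretches of Egln1, Egln3 and Ddit4 are shown for these ranges and because these are the known targets among the members. They are written 5′ to 3′ on the minus strand with ACGTG in capitals, at chr8:124949315-124949504, chr12:54203875-54204124 and chr10:59951825-59952020 in that order. The Egln1 and Ddit4 stretches also hold GCGTG, which is left in small letters.
Egln1: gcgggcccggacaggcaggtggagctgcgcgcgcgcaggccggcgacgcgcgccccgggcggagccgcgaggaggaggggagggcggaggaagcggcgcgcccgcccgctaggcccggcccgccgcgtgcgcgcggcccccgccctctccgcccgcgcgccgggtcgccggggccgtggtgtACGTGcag
Egln3: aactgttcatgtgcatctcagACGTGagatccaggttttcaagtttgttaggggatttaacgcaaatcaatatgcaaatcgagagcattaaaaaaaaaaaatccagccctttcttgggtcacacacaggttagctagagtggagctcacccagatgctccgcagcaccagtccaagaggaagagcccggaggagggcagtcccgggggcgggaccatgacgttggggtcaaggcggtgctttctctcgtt
Ddit4: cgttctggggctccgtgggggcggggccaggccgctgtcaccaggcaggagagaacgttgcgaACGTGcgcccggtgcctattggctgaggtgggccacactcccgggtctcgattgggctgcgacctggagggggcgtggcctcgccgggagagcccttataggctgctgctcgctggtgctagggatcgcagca
Distances are from the RefSeq starts, which can differ from the ends of the GENCODE genes given above: the window of Hif1a (chr12:73907617-73907866) lies inside the GENCODE gene, and those of Egln1 and Ddit4 reach past the GENCODE start and are printed only up to 10 bases beyond it. The Egln1 motif lies just inside the GENCODE gene, within the first 10 bases past its start. Such a match describes letters in the DNA and was not tested as a binding site.

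The library held 14181 barcodes with 500 to 85279 UMIs each, of which 8255 passed the filters with a median of 13957 UMIs. Clusters were named from markers with the ending "-like", which is left out below for reading. In all, 23 classes were named, and 7 clusters of 475 cells were not. The name of the maturing chondrocytes is less certain. Ucma, a gene of the resting list, led that cluster, and Matn1 of the maturing list was also among its leading genes. Levels are given as CPM, the UMIs of a gene per 1000000 UMIs of a class, with exact Poisson 95% intervals. Ratios are given as log2 with 1 CPM added, and their intervals come from the counts alone, so that for a low gene the interval may not be centred on the ratio. A gene was called between 2 classes when it differed at least 2-fold with an interval that left out 1, among genes with at least 10 CPM in either class. With 1 library there is no replicate: no test was made, the intervals cover counting error only, and a class difference could not be checked in another animal. Free RNA was present, as Col2a1, a cartilage collagen, reached 268 to 1075 CPM in leukocyte classes against 13648 to 72047 CPM in chondrocytes. The classes had between 22 cells (T or NK cells) and 796 cells (maturing chondrocytes), and the median UMIs per cell ran from 5149 to 35782 (HCs).

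Hif1a was a gene of cartilage, pericytes and vessels. Its level was highest in resting chondrocytes, at 332 CPM (309 to 356, n = 179 cells), followed by pericytes or smooth muscle at 261 CPM (228 to 297). Maturing chondrocytes held 250 CPM (242 to 258), cycling chondrocytes 246 CPM, pre-HCs 236 CPM (229 to 244) and HCs 197 CPM (182 to 213). The chondrocyte stages thus lay close together, and the resting cells stood above the maturing cells by a log2 ratio of 0.41 (0.29 to 0.52). Levels were lower in the osteogenic classes, with 150 CPM in stromal progenitors, 95.4 CPM (88.1 to 103) in immature Obs and 76.8 CPM (70.9 to 82.9) in mature Obs. Over the summed cells, chondrocytes held 246 CPM and osteogenic cells 94.7 CPM, a log2 ratio of 1.37 (1.30 to 1.45). Blood vessels held 226 CPM (216 to 236) and fibroblasts 155 CPM (141 to 171).

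Every blood class had less Hif1a than the chondrocyte classes, pericytes and vessels, but several lay above immature Obs (95.4 CPM). Apart from the 22 T or NK cells (136 CPM), the highest were plasmacytoid dendritic cells at 123 CPM, monocytes at 120 CPM (109 to 132), dendritic cells at 113 CPM and late neutrophils at 107 CPM (100 to 114). Osteoclasts, the bone-resorbing cells, held 47.7 CPM, neutrophil myelocytes 32.4 CPM (26.9 to 38.8) and erythroid cells 13.6 CPM (11.6 to 15.8). The highest class was 24.5-fold above the lowest, and in the order of the 23 classes 8 of the 22 neighbouring pairs differed beyond counting error. Those steps were at the top between resting chondrocytes and pericytes, then between vessels and HCs and between HCs and fibroblasts, and 5 further down among the osteogenic and blood classes. Here and below, neighbours in such an order have the closest levels, so classes further apart can differ where no neighbours do. Hif1a UMIs were found in 92.2% of resting chondrocytes, 98.3% of pre-HCs and 19.1% of erythroid cells. After every cell was thinned to 5000 UMIs, these shares were 74.7%, 66.8% and 6.70%, so that the order between resting chondrocytes and pre-HCs turned round when depth was made equal.

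Late neutrophils held 2 clusters with unlike Hif1a levels, a pair chosen after the levels were seen. A cluster of 412 cells led by Cxcl2, Il1b and Ccl3, which encode inflammatory cytokines, had 205 CPM (189 to 222). The other, of 374 cells and led by genes that included Retnlg, Camp and Fcnb, had 53.3 CPM (47.2 to 59.9). The log2 ratio was 1.92 (1.74 to 2.15). Arnt was also higher in the cytokine cluster, at 35.2 against 15.2 CPM, and so was Ddit4, at 26.9 against 9.67 CPM, whereas Egln1 was 23.1 against 21.0 CPM. The clusters also differed in other ways: Top2a, a gene of dividing cells, was found in 64.2% of cells of the Retnlg cluster and 9.47% of the other, their median depth was 13292 and 6614 UMIs, and 18.2% and 0.243% of their cells were marked as doublets. The part of these in the Hif1a difference was not tested.

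**Figure D1:**
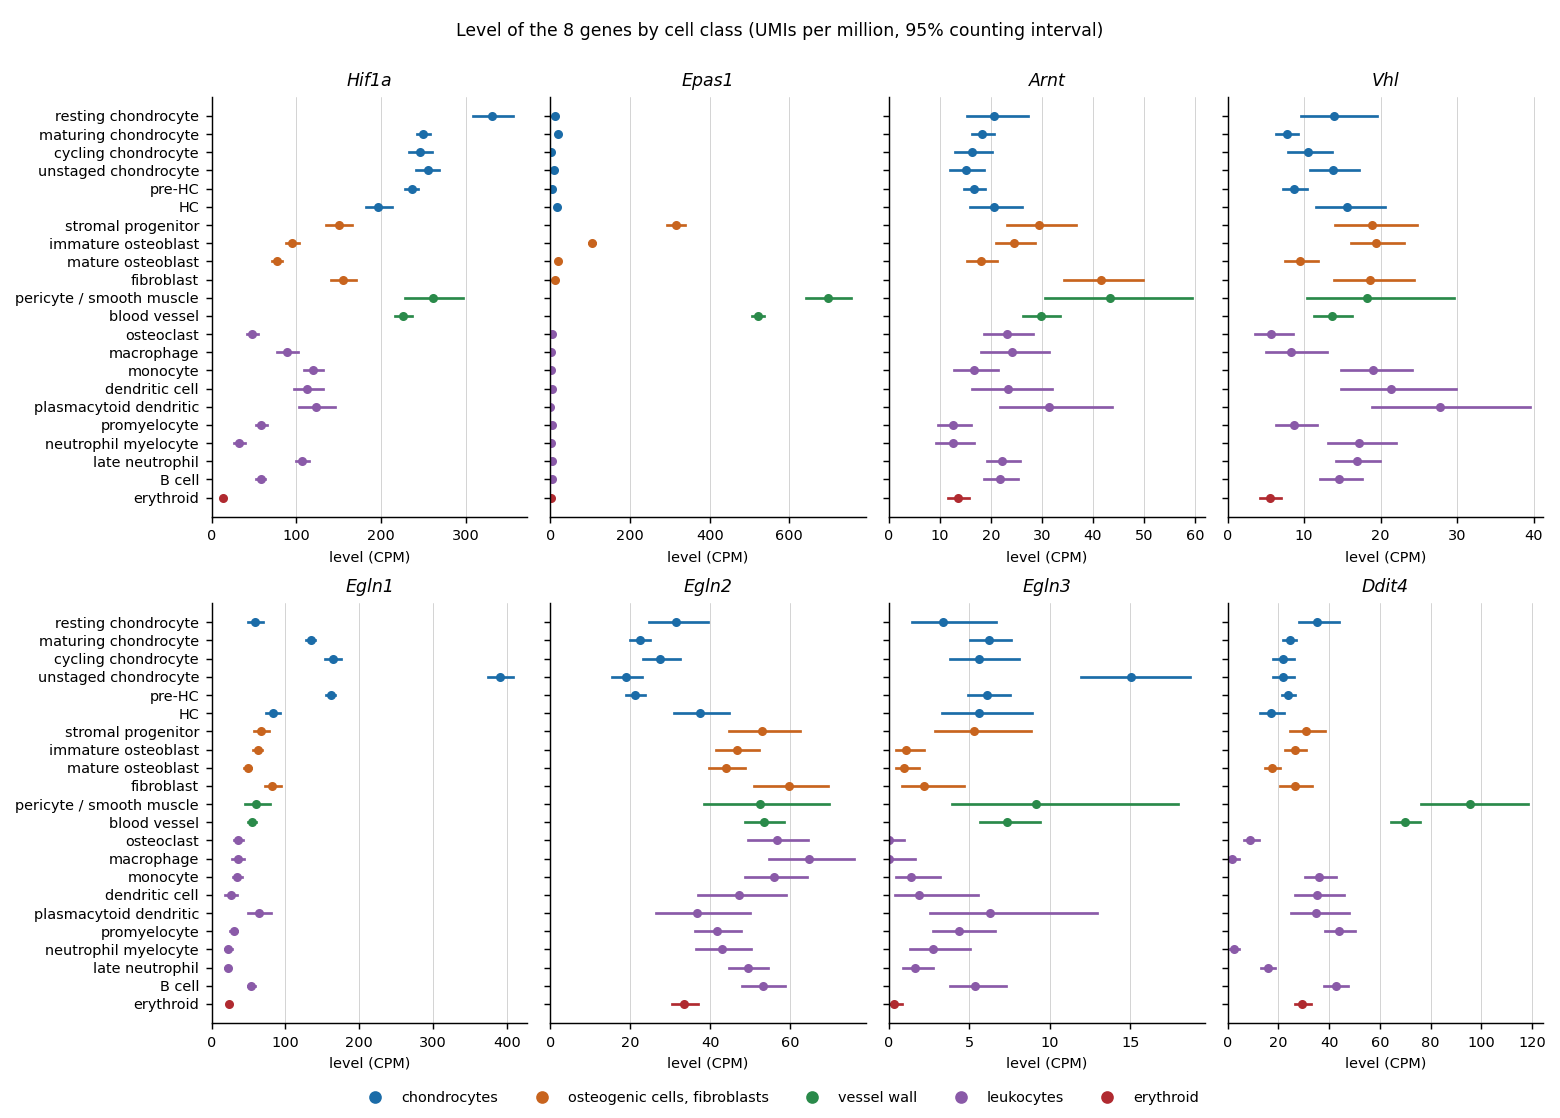
Level of each of the 8 genes (CPM, x axis, with the exact 95% counting interval as a bar) in 22 cell classes (y axis); T or NK cells, with 22 cells, are not drawn. Hif1a is high along the chondrocyte classes, Epas1 in pericytes, vessels and stromal progenitors, and Egln1 in the unstaged chondrocytes at 391 CPM.

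Epas1 was a gene of pericytes, vessels and marrow stroma. It was highest in pericytes or smooth muscle at 697 CPM (643 to 755), followed by blood vessels at 521 CPM (506 to 536), stromal progenitors at 315 CPM (294 to 337) and immature Obs at 104 CPM (96.3 to 112). Each of these 4 steps down, including the last to maturing chondrocytes at 19.8 CPM (17.7 to 22.2), was beyond counting error. Mature Obs held 18.6 CPM (15.8 to 21.7) and HCs 17.5 CPM (13.2 to 22.7), and the other classes lay at 16.0 CPM or lower. Pre-HCs had 3.59 CPM (2.69 to 4.68), the leukocyte classes other than T or NK cells 5.38 CPM or less, and erythroid cells 1.71 CPM. No Epas1 UMI was counted in plasmacytoid dendritic cells, which allows up to 2.69 CPM.

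The shares of cells with an Epas1 UMI had the same order in these classes. They were 98.9% in pericytes, 94.0% in vessel cells, 88.4% in stromal progenitors, 58.7% in immature Obs and 21.7% in mature Obs, against 2.72% in erythroid cells, which serve here as a background. At 5000 UMIs per cell the shares were 95.1%, 84.5%, 72.0%, 38.0% and 7.64%, against 0.913%. HCs, the deepest class, had Epas1 in 35.6% of cells before thinning and 8.89% after. At the same depth 2.91% of pre-HCs and 1.70% of leukocytes had an Epas1 UMI, close to the erythroid share.

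Within the vessels, Epas1 differed between clusters. Of the 2 clusters of blood vessel cells, a pair compared after the levels were seen, 138 cells were led by Stmn2, Eln, Igfbp3 and Gja4, of which Eln (elastin) and Gja4 (connexin 37) are known from arteries. They held 1117 CPM of Epas1 (1064 to 1172). The other 608 cells were led by Fabp4, Emcn and Plvap, genes of capillaries and sinusoids, and held 397 CPM (383 to 412). The log2 ratio was 1.49 (1.40 to 1.58). Hif1a went the other way, at 187 against 234 CPM (log2 ratio -0.33), while Arnt was 43.5 against 26.9 CPM (log2 ratio 0.67, 0.26 to 1.10) and Ddit4 87.6 against 66.4 CPM (0.39).

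Because vessels held so much Epas1, cells of the other classes with 3 or more UMIs of 6 vessel markers (Cdh5, Pecam1, Emcn, Cldn5, Kdr and Plvap) were counted, a step added after the levels were seen. In maturing chondrocytes these were 38 of 796 cells (4.77%). They held 190 of the 303 Epas1 UMIs of that class (62.7%), 52.6% of them were marked as doublets, and their median was 28921.5 UMIs against 18029 in the rest. The summed vessel markers were 1460 CPM in them and 9.90 CPM in the rest. Without them Epas1 in maturing chondrocytes was 7.99 CPM (6.58 to 9.60), down from 19.8 CPM. Without such cells HCs held 16.4 CPM, immature Obs 106, mature Obs 16.4, stromal progenitors 306 and pericytes 677 CPM, close to their levels with all cells. Low levels in some blood classes dropped further, from 4.22 to 2.07 CPM in osteoclasts, 4.40 to 1.96 CPM in dendritic cells, 2.98 to 1.22 CPM in promyelocytes, 2.45 to 1.39 CPM in monocytes and 5.19 to 3.33 CPM in B cells. These drops rested on few UMIs, from 4 in monocytes and dendritic cells to 16 in B cells. Late neutrophils changed little (5.38 to 5.13 CPM), and macrophages (2.62 to 2.77 CPM) and neutrophil myelocytes (1.09 CPM in both) did not drop. Epas1 in HCs, immature Obs and stroma was thus about as large without the cells that carried vessel markers. In maturing chondrocytes and the blood classes that dropped it was not.

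**Figure D2:**
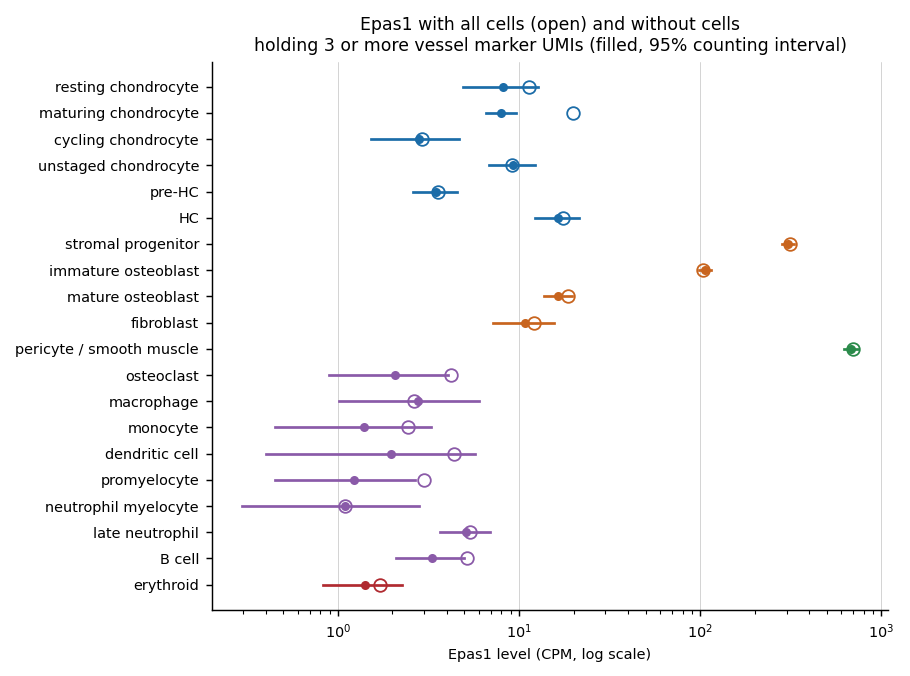
Epas1 level (CPM, log x axis) in each class other than blood vessels and plasmacytoid dendritic cells, with all cells and without cells that hold 3 or more UMIs of 6 vessel markers; bars are exact 95% counting intervals. The maturing chondrocytes drop from 19.8 to 7.99 CPM, while immature Obs, stromal progenitors and pericytes stay in place.

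The balance between the alpha subunits can be compared across classes as the share of Epas1 among Hif1a and Epas1 UMIs. Whether the classes use different transcript ends of either gene was not tested. Epas1 made up 72.8% of these UMIs in pericytes (69.6 to 75.8), 69.7% in vessels (68.6 to 70.8), 67.7% in stromal progenitors (65.1 to 70.4) and 52.1% in immature Obs (49.4 to 54.9). The share was 19.5% in mature Obs (16.8 to 22.4) and 11.2% or less in all other classes. Along cartilage it was 3.31% in resting chondrocytes, 7.34% in maturing chondrocytes, 1.49% in pre-HCs (1.12 to 1.95) and 8.14% in HCs (6.21 to 10.4). The value of maturing chondrocytes includes the vessel-marker cells, which held 190 of the 303 Epas1 UMIs of that class. Without them Epas1 was 7.99 CPM and Hif1a 252 CPM, so the share there was lower than 7.34%. The step from HCs to immature Obs was the largest between neighbouring stages of the lineage. Both subunits were found together in 83.3% of pericytes, 73.2% of vessel cells, 65.1% of stromal progenitors, 37.9% of immature Obs (190 of 501), 34.4% of HCs and 16.0% of mature Obs. These shares of cells were taken without thinning. The median depth was 35782 UMIs in HCs, 11368 in immature Obs and 18097 in mature Obs. At equal depth Epas1 alone was found in far fewer HCs than immature Obs, as given above. The HC share therefore cannot be ranked against those of the Obs. Within the vessels the share of Epas1 among the UMIs of both genes was 85.7% in the artery-led cluster and 62.9% in the other cluster.

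**Figure D3:**
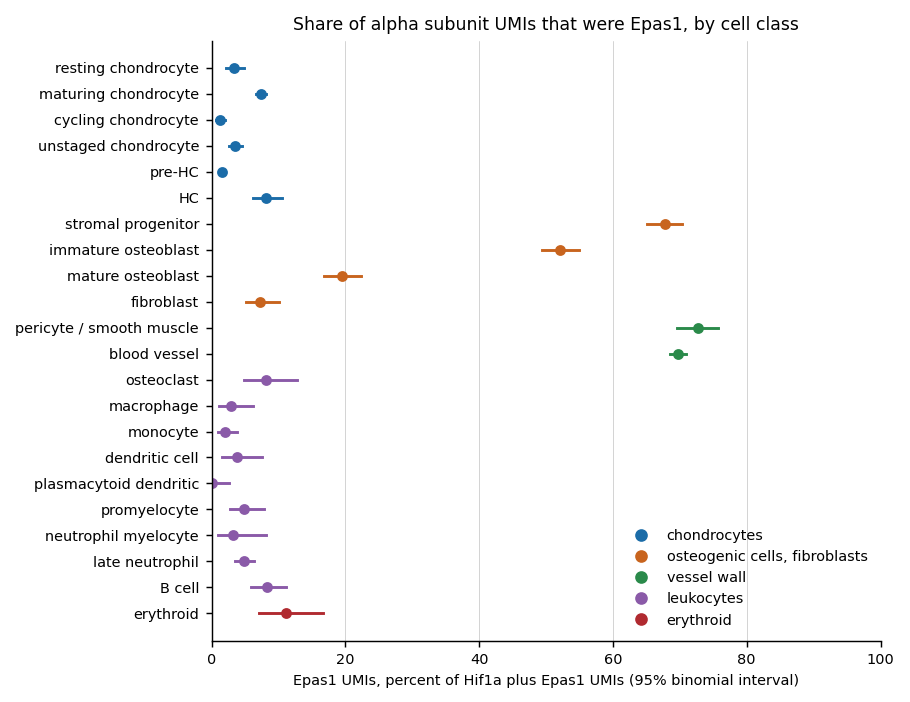
Share of Epas1 among the UMIs of Hif1a and Epas1 together (percent, x axis) in each class (y axis), with exact Clopper-Pearson 95% intervals as bars. Pericytes, vessels, stromal progenitors and immature Obs sit between 52.1% and 72.8%, and the other classes at 19.5% or lower.

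Arnt, the shared partner of both alpha subunits, varied far less. Its levels ran from 12.5 CPM in promyelocytes to 43.3 CPM (30.6 to 59.4) in pericytes, a range of 3.46-fold. None of the 22 neighbouring pairs in its order differed beyond counting error, but wider groups did. Over the summed cells, chondrocytes against osteogenic cells had a log2 ratio of -0.33 (-0.52 to -0.17). Fibroblasts held 41.5 CPM (34.3 to 49.8), plasmacytoid dendritic cells 31.4 CPM, vessels 29.8 CPM (26.2 to 33.7), immature Obs 24.6 CPM, mature Obs 18.1 CPM and the chondrocyte classes 15.03 to 20.6 CPM. Pericytes had the highest level of both Arnt and Epas1, but fibroblasts and plasmacytoid dendritic cells, next in the order of Arnt, had little or no Epas1.

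Of the hydroxylase genes, Egln1 differed most between the cartilage classes. Resting chondrocytes had 58.9 CPM (49.6 to 69.5), maturing chondrocytes 134 CPM (128 to 140), cycling chondrocytes 164 CPM (153 to 175) and pre-HCs 161 CPM (155 to 168), and HCs were lower again at 82.6 CPM (72.9 to 93.2). The resting cells lay below the maturing cells with a log2 ratio of -1.17 (-1.44 to -0.94), in the opposite direction to Hif1a. The highest level of all classes, 391 CPM (375 to 408), was in 206 unstaged chondrocytes, a cluster with 43092 CPM of Col2a1 that passed the marker rule for no single stage. It was led by 2610528A11Rik, Tnni2, Espn, Serinc5, Il17b, Hapln1, Bnip3, Aldoc, Cox4i2 and P3h2, of which Bnip3, Aldoc and Cox4i2 are listed here as HIF targets, although these lists had been kept out of the genes used for clustering. At 5000 UMIs per cell Egln1 was found in 81.5% of the unstaged chondrocytes, 49.1% of pre-HCs, 46.1% of cycling, 40.2% of maturing and 22.5% of resting chondrocytes and 27.8% of HCs. In the other classes Egln1 ran from 82.0 CPM in fibroblasts through 62.1 CPM in immature Obs, 54.4 CPM (49.6 to 59.6) in vessels and 48.9 CPM in mature Obs to 21.8 CPM in late neutrophils, an 18.0-fold range in all. Of its 22 neighbouring pairs 4 differed beyond counting error.

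Egln2 was lowest where Egln1 was highest. It had 18.9 CPM in the unstaged chondrocytes and 18.9 to 37.4 CPM over the chondrocyte classes, HCs being the highest of these. The stromal and Ob classes held 44.0 to 53.1 CPM, vessels 53.5 CPM, fibroblasts 59.8 CPM and macrophages 64.7 CPM, a range of 3.42-fold with no neighbouring pair beyond counting error. Over the summed cells, chondrocytes against osteogenic cells had an Egln2 log2 ratio of -0.94 (-1.10 to -0.84). Egln3 was a low gene. It had 15.03 CPM (11.9 to 18.7) in the unstaged chondrocytes, 9.11 CPM in pericytes, 7.33 CPM in vessels and 3.37 to 6.22 CPM in the other chondrocyte classes, against 1.07 CPM in immature and 0.952 CPM in mature Obs. Its 16.0 CPM in T or NK cells rested on 2 UMIs. Macrophages and osteoclasts had no Egln3 UMI, which allows up to 1.31 and 0.745 CPM.

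Vhl, the substrate receptor of the ubiquitin ligase, lay between 5.52 CPM in erythroid cells and 27.8 CPM in plasmacytoid dendritic cells, a range of 5.04-fold with no neighbouring pair beyond counting error. In the lineage it was 7.72 CPM in maturing chondrocytes, 8.70 CPM in pre-HCs, 15.6 CPM in HCs, 19.4 CPM (16.2 to 23.1) in immature Obs and 9.52 CPM (7.55 to 11.8) in mature Obs.

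Ddit4 followed the vessel wall and parts of the blood lineage. Pericytes held 95.7 CPM (76.3 to 118) and blood vessels 70.0 CPM (64.5 to 75.8), with a similar 96.2 CPM in T or NK cells resting on 12 UMIs. Promyelocytes had 43.9 CPM, B cells 42.5 CPM, and resting chondrocytes 35.4 CPM. The later chondrocyte and Ob classes held 17.1 to 26.5 CPM, and osteoclasts 8.94, neutrophil myelocytes 2.45 and macrophages 1.75 CPM. Of its neighbouring pairs 4 of 22 differed beyond counting error. The 55.0-fold range ran from T or NK cells to macrophages and rested on few UMIs at both ends. An unnamed cluster of 121 cells led by genes that included Hmga2, Ifitm1, Cd69 and Flt3 had more Ddit4 than any named class, 132 CPM (118 to 148), with UMIs in 64.5% of its cells.

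In erythroid cells Ddit4 split by cluster, a pair again chosen after the levels were seen. The 157 cells led by Car1, an erythroid carbonic anhydrase, had 60.3 CPM, and the 504 cells led by haemoglobin genes had 5.75 CPM, a 9.08-fold difference (log2 ratio 3.18, 2.91 to 3.90). Egln1 was 37.0 against 12.9 CPM, Egln2 46.1 against 23.9 CPM, Vhl 8.22 against 3.45 CPM and Hif1a 16.8 against 11.1 CPM in the same clusters, all in the same direction, whereas Epas1 rested on 6 and 15 UMIs (1.12 and 2.16 CPM). The haemoglobin genes take a large part of the UMIs of the latter cells, with Hba-a1 alone at 35812 CPM over all erythroid cells, and the part of this in the differences was not tested.

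The stages were then compared in turn. From maturing chondrocytes to pre-HCs, 6 members were compared, none was called higher (2.22% of 7157 genes were) and 1, Epas1, was called lower (background 4.71%). Epas1 was 4.54-fold lower in pre-HCs (log2 ratio -2.18, -2.91 to -2.05). This call was lost without the vessel-marker cells (-1.01, with both classes then below 10 CPM) and when marked doublets were left out (-0.27). Hif1a and Egln1 kept to within 2-fold, Egln1 with a log2 ratio of 0.26.

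From pre-HCs to HCs, 7 members were compared. Epas1 was the 1 gene called higher, where 23.0% of all 7913 genes were, and none was called lower, where 6.61% were. Epas1 was 4.02-fold higher (log2 ratio 2.01, 1.72 to 2.85), and Egln1 was 1.94-fold lower, just short of a call (-0.95, -1.15 to -0.78). Egln2 (0.79) and Vhl (0.77) were higher and Hif1a lower (-0.26) in HCs by less than 2-fold. The median of all genes was itself 0.45 higher in HCs, and of all called genes 77.6% were higher, a split that became 48.5% when ratios were centred on that median. Relative to it the log2 ratio of Epas1 was 1.56 and that of Egln1 -1.40, and Egln1 was then called lower as well.

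From HCs to immature Obs the alpha subunits went in opposite directions. They reached similar levels there, at 95.4 CPM of Hif1a and 104 CPM of Epas1. Hif1a was 2.05-fold lower (log2 ratio -1.04, -1.21 to -0.88) and Epas1 5.69-fold higher (2.51, 2.18 to 2.99). These were 1 of 7 members called in each direction, against 21.3% of 9078 genes called higher and 15.2% called lower. The Hif1a call sat at the 2-fold limit and was lost when marked doublets were left out (-0.76) and under further settings, whereas the Epas1 ratio was 2.05 to 3.38 under every setting tried. Egln1 differed by less than 2-fold (-0.41). In mature against immature Obs, Epas1 was 5.37-fold lower (log2 ratio -2.42, -2.75 to -2.23), the 1 member called lower of 7, where 17.4% of 8466 genes were, and no member was called higher, where 4.12% were. Vhl was 1.94-fold lower (-0.96), and Hif1a -0.31. All genes had a median of -0.46 in this step, and centring moved the share of higher genes among the called from 19.2% to 51.1% without ending the Epas1 call (-1.96). Without doublets the Epas1 ratio was -3.26. Epas1 was 315 CPM in stromal progenitors, 104 CPM in immature Obs and 18.6 CPM in mature Obs, falling in that order. Whether these classes follow each other as stages was not tested.

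Blood vessels were compared with the sum of the chondrocyte, stromal and Ob classes (3125 cells), in which Hif1a held 205, Epas1 34.0, Egln1 138 and Ddit4 23.5 CPM. Of 7 members 2 were called higher, where 28.7% of 8933 genes were: Epas1, 14.9-fold (log2 ratio 3.90, 3.86 to 4.01), and Ddit4, 2.90-fold (1.54, 1.44 to 1.71). Egln1 was called lower, where 14.2% were, by 2.50-fold (-1.32, -1.48 to -1.21). Egln2 (0.82) and Arnt (0.64) were higher by less than 2-fold. After centring, 48.2% instead of 66.9% of the called genes were higher in vessels. Chondrocytes gave 46471426 of the 64067967 UMIs of the sum, so these calls were mostly set against cartilage. Egln1 was 169 CPM in chondrocytes and 56.5 CPM in osteogenic cells, the latter close to the 54.4 CPM of vessels. Hif1a, not called, was 226 CPM in vessels, near the 246 CPM of chondrocytes and above the 94.7 CPM of osteogenic cells.

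Leukocytes (2870 cells) and erythroid cells (661 cells) had the same 3 members called lower against those cells, of 7 compared, and none called higher. In leukocytes 20.8% of 9033 genes were called lower and 24.5% higher, and in erythroid cells 32.3% of 8512 genes lower and 20.5% higher. The comparisons share the cells they are set against. Hif1a was 2.61-fold lower in leukocytes (log2 ratio -1.39) and 14.1-fold lower in erythroid cells (-3.82). Epas1 was 7.22-fold (-2.85) and 12.9-fold (-3.69) lower, and Egln1 3.91-fold (-1.97) and 5.69-fold (-2.51) lower. Ddit4 was 25.8 CPM in leukocytes against 23.5 CPM, and Egln2 was higher there by less than 2-fold (0.73).

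The unstaged chondrocytes were set against pre-HCs after the clusters had been seen. Egln1 was 2.42-fold higher (log2 ratio 1.28, 1.20 to 1.37) and Egln3 2.26-fold higher (1.17, 0.85 to 1.75). These are 2 of 7 members, where 1.95% of 6821 genes were called higher, and no member was called lower, where 3.58% were. Epas1 was below 10 CPM in both. The unstaged cells had a lower mitochondrial share (median 2.59% against 3.61%) and less of the genes induced by digestion (summed 4454 against 7075 CPM), whose part was not tested. With 3000 variable genes the unstaged cluster was drawn otherwise and the ratios were 0.23 for Egln1 and 0.06 for Egln3, with Epas1 (2.03) called instead.

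HC-derived cells, those with more than 14 WPRE UMIs, differed little from the other cells of their class. In immature Obs (102 against 399 cells) none of 7 members was called, where 2.20% of 8685 genes were called higher and 2.50% lower, and Epas1 was 127 against 96.6 CPM (log2 ratio 0.40, 0.16 to 0.64). In mature Obs (158 against 261 cells) none of 7 was called, where 1.91% of 7374 genes were higher and 0.868% lower. Hif1a was 102 against 59.5 CPM in these, 1.70-fold higher in the HC-derived cells (0.77, 0.55 to 1.01). In stromal progenitors Epas1 was 345 CPM in 38 HC-derived cells against 308 CPM in the other 203.

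**Figure D4:**
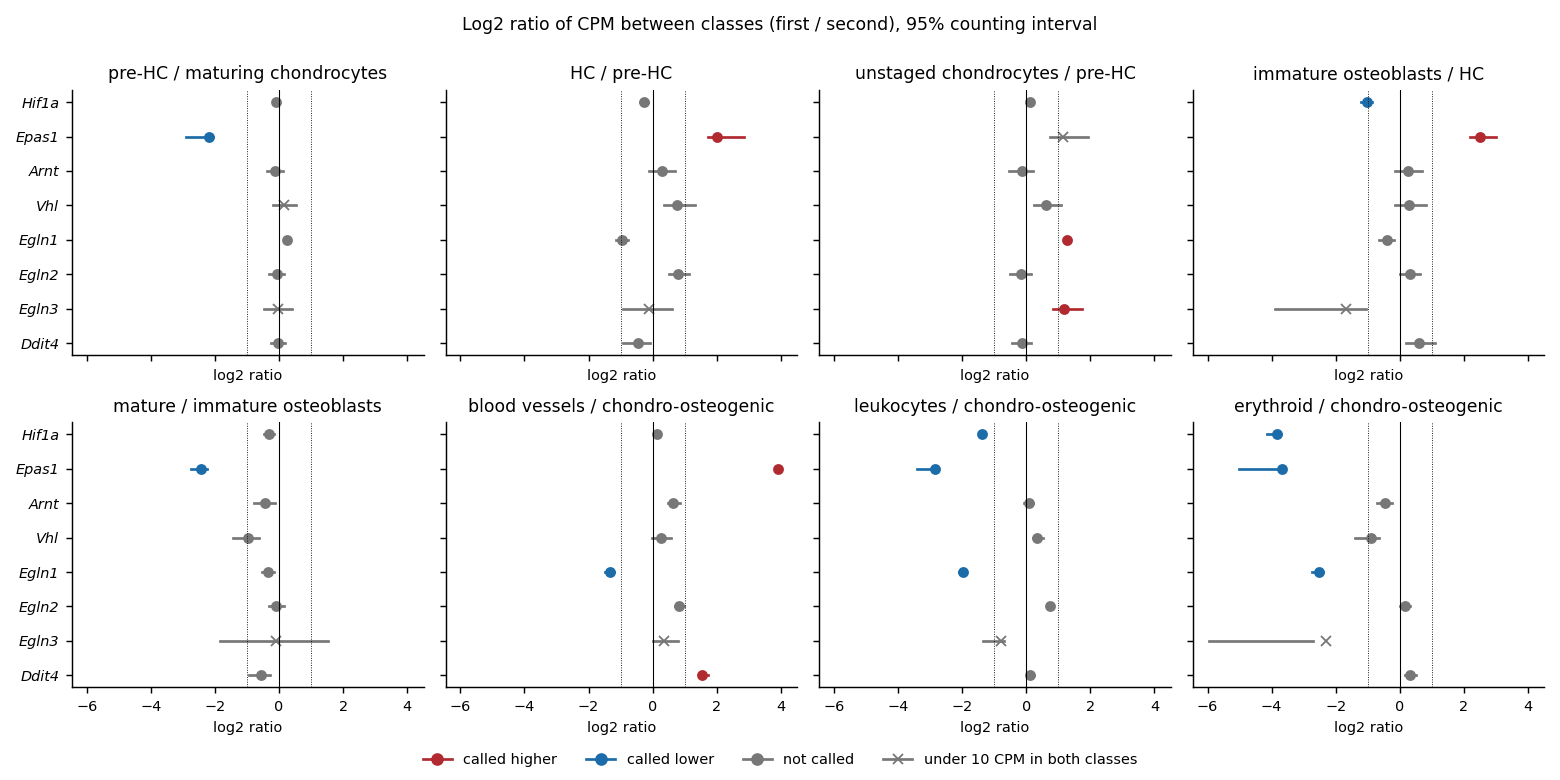
Log2 ratio of each of the 8 genes (x axis) in 8 comparisons (panels), with exact 95% counting intervals as bars and dotted lines at 2-fold; a cross marks a gene below 10 CPM in both classes. Epas1 spreads widest, from -3.69 in erythroid cells to 3.90 in blood vessels, while Arnt, Vhl and Egln2 stay near the centre.

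Known HIF targets were then counted from fixed lists. The 26 targets of glucose use summed to 4325 CPM in resting chondrocytes, 9796 CPM in maturing chondrocytes, 12836 CPM in pre-HCs, 15758 CPM in the unstaged chondrocytes and 8026 CPM in HCs, and to 2422 to 2948 CPM in the osteogenic classes, 3113 CPM in vessels and 2084 CPM in erythroid cells. Over these chondrocyte classes the order is that of Egln1. Cycling chondrocytes departed from it. Their sum of 9800 CPM was level with that of maturing cells, while their Egln1 of 164 CPM was level with that of pre-HCs. In pre-HCs 3 of 24 compared genes were called higher than in maturing chondrocytes and none lower (median 0.29, against -0.02 for all genes): Car12, a carbonic anhydrase, at 1.53, Slc16a3, a lactate exporter, at 1.10 and Ak4 at 1.06. In HCs 1 of 23 was higher than in pre-HCs (Gys1, glycogen synthase, 1.11) and 5 were lower (Car12 -3.50, Pygl -1.88, Slc16a3 -1.33 and Ldha -1.29 among them), with a median of -0.37 against 0.45. In immature Obs 17 of 24 were lower than in HCs and 1 higher (median -1.50 against 0.11): Aldoc was at -5.43, Slc2a1, a glucose transporter, at -4.09, Ak4 at -3.75 and Slc16a3 at -2.81, and Slc2a3 was at 2.04. For all genes compared, 2.22% were called higher and 4.71% lower in pre-HCs. These shares were 23.0% and 6.61% in HCs, and 21.3% and 15.2% in immature Obs.

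Mature Obs had 3 of 21 glucose targets lower than immature Obs and none higher, with a median of -0.39 near the -0.46 of all genes. Vessels had 15 of 24 lower and 1 higher than the chondro-osteogenic cells (median -1.86 against 0.40), the latter being Pfkfb3 at 1.01, a driver of glycolysis. Aldoc (-5.11), Car12 (-5.05), Pygl (-4.56) and Hk2 (-3.56) were lowest. Leukocytes had 14 of 25 lower and 2 higher (median -1.27 against 0.27), with Slc2a3 at 2.13 and Gpi1 at 1.35. Erythroid cells had 21 of 25 lower and 2 higher (median -2.78 against -0.07), with Hk1 at 1.49 and Slc2a3 at 1.16. In the unstaged chondrocytes 5 of 24 were higher than in pre-HCs and 1 lower (median 0.16 against -0.07). Car9, a classical HIF target, was higher by 2.14, Gbe1 by 1.48, Gys1 by 1.43 and Pfkp by 1.18, and Car12 was at -1.22. No gene of the list was called between HC-derived and other cells in immature Obs (20 compared) or mature Obs (17 compared). For all genes, the shares called higher and lower were 4.12% and 17.4% in mature Obs and 28.7% and 14.2% in vessels. They were 24.5% and 20.8% in leukocytes, 20.5% and 32.3% in erythroid cells, and 1.95% and 3.58% in unstaged chondrocytes. In HC-derived cells they were 2.20% and 2.50% for immature and 1.91% and 0.868% for mature Obs.

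The 41 other HIF targets were counted in the same way. In vessels 13 of 38 were higher and 16 lower than in the chondro-osteogenic cells (median 0.17 against 0.40). The higher ones were led by Flt1, a VEGF receptor, at 6.67, Pdgfb at 5.82, Edn1 (endothelin) at 4.88 and Angptl4 at 3.24, and the lower ones by Ndufa4l2 at -6.08, Cox4i2 at -5.34, P4ha2, a collagen hydroxylase, at -4.91 and Bnip3, a mitophagy gene, at -4.71. In HCs 12 of 32 were higher and 4 lower than in pre-HCs (median 0.59 against 0.45), led by Lox (5.59), Hmox1 (3.19), Adm (2.89) and Ero1l (2.76) above and Ndufa4l2 (-2.11), Plod2 (-2.04), Cox4i2 (-1.91) and Plod1 (-1.29) below. In immature Obs 7 of 36 were higher and 18 lower than in HCs (median -0.89 against 0.11), with Pgf (3.68) and Angpt2 (2.85), both vessel growth factors, above, and Stc2 (-4.72), Ero1l (-4.34) and Bnip3 (-4.31) below. In mature Obs 7 of 35 were higher and 4 lower (median -0.24 against -0.46). The 4 with the largest ratios, Lox (2.73), P4ha2 (2.17), P4ha1 (1.56) and Plod2 (1.31), encode enzymes that modify collagen. For all genes, the shares called higher and lower were 28.7% and 14.2% in vessels and 23.0% and 6.61% in HCs. They were 21.3% and 15.2% in immature Obs and 4.12% and 17.4% in mature Obs.

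In pre-HCs 1 of 31 was higher than in maturing chondrocytes (Vldlr, 1.16) and 3 were lower (Flt1 -2.58, Angptl4 -1.69 and Lox -1.30; median 0.05 against -0.02). Flt1 and Angptl4 were also among the genes highest in vessels, whose marker cells in the maturing class are described above. Leukocytes had 5 of 34 higher and 20 lower (median -1.81 against 0.27), and erythroid cells 3 of 32 higher and 26 lower (median -3.57 against -0.07), the higher ones being Tfrc (3.81), the transferrin receptor that brings iron to red cells, Narf (3.32) and Mxi1 (1.79). The unstaged chondrocytes had 4 of 30 higher than pre-HCs and none lower (median 0.38 against -0.07), namely Ero1l (1.77), Mxi1 (1.55), Lox (1.20) and Cox4i2 (1.03). Among HC-derived mature Obs 3 of 34 were higher (Cox4i2 1.36, Stc2 1.05, Bnip3 1.03) and Angpt2 (-1.07) was lower than in the other mature Obs, and none of 35 was called in immature Obs. For all genes, the shares called higher and lower were 2.22% and 4.71% in pre-HCs and 24.5% and 20.8% in leukocytes. They were 20.5% and 32.3% in erythroid cells and 1.95% and 3.58% in unstaged chondrocytes. In HC-derived cells they were 1.91% and 0.868% for mature and 2.20% and 2.50% for immature Obs.

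Further genes that act on the HIF proteins were counted as well. Of 13 genes of HIF hydroxylation and degradation, 9 to 11 were compared in the 8 comparisons between classes, and none was called in pre-HCs, leukocytes or the unstaged chondrocytes. Siah1a, a ubiquitin ligase that acts on the PHD proteins, was higher in vessels (1.92), and in HCs it was called higher with Usp33 and Cul2. Rbx1 was lower in immature Obs (-1.02) and Senp1 in mature Obs. Siah1b and Senp1 were higher and Siah2 and Os9 lower in erythroid cells. Of 6 subunits and coactivators 3 or 4 were compared. Cited2, which competes with HIF for its coactivators, was higher in HCs (2.75), leukocytes (1.11) and unstaged chondrocytes (1.26) and lower in erythroid cells (-1.82). Ep300 was higher in vessels (1.35), leukocytes (1.24) and erythroid cells (1.26), and Cited4 in erythroid cells (3.63).

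Of 12 genes of the mTORC1 branch, Ddit4l, the paralogue of Ddit4, had a pattern unlike that of Ddit4. It was called higher in pre-HCs (1.01), again in HCs (3.47; 218 against 18.8 CPM) and in unstaged chondrocytes (1.61), and lower in immature Obs (-3.89) and vessels (-2.74), in which Ddit4 was higher. Over the list, the counts higher and lower were 1 and 0 of 10 in pre-HCs, 2 and 0 of 10 in HCs (with Tsc1, 1.67), 0 and 3 of 10 in immature Obs (with Deptor and Sesn2), 0 and 1 of 9 in mature Obs (Txnip), 1 and 2 of 10 in vessels (Tsc1 1.01, Deptor -1.33), 1 and 4 of 11 in leukocytes, 1 and 4 of 12 in erythroid cells and 1 and 0 of 10 in unstaged chondrocytes. Ddit4l was also higher in HC-derived mature Obs (1.74).

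Ddit4 also responds to glucocorticoids and to ATF4, a factor of amino acid stress, so targets of both were counted. Of all genes compared, 28.7% were called higher and 14.2% lower in vessels, 23.0% and 6.61% in HCs, and 21.3% and 15.2% in immature Obs. The shares were 4.12% and 17.4% in mature Obs, 24.5% and 20.8% in leukocytes, and 20.5% and 32.3% in erythroid cells. They were 1.95% and 3.58% in unstaged chondrocytes and 2.22% and 4.71% in pre-HCs. The counts here and for the mTORC1 and HIF-acting genes above are to be read beside these shares. Of 10 glucocorticoid receptor targets, 2 of 9 compared were higher and 2 lower in vessels, with a median of 0.06 against 0.40 for all genes. Fkbp5 was at 2.74 and Sgk1 at 1.63, and the metallothioneins Mt1 and Mt2 were at -3.67 and -2.51. Whether these targets went with Ddit4 was not tested. The counts higher and lower were 3 and 1 of 9 in HCs, 1 and 2 of 9 in immature Obs, 1 and 0 of 9 in mature Obs, 0 and 3 of 9 in leukocytes, 1 and 6 of 8 in erythroid cells, 0 and 1 of 8 in unstaged chondrocytes and 0 and 0 of 8 in pre-HCs. Of 10 ATF4 targets, 5 of 10 were higher in HCs (Slc7a11 2.95 and Trib3 1.89 among them; median 1.03 against 0.45) and 7 of 10 lower in immature Obs (Trib3 -4.02, Asns -3.23; median -1.46 against 0.11), and 6 of 10 were lower in vessels with none higher. The remaining counts higher and lower were 2 and 1 of 8 in mature Obs, 2 and 2 of 10 in leukocytes, 4 and 0 of 10 in erythroid cells, 0 and 1 of 9 in unstaged chondrocytes and 0 and 1 of 10 in pre-HCs. The 16 genes that digestion induces were all compared. They were higher and lower in 6 and 2 in immature Obs, 2 and 0 in mature Obs, 4 and 2 in vessels, 0 and 3 in HCs, 0 and 11 in leukocytes, 0 and 14 in erythroid cells, 0 and 2 in unstaged chondrocytes (Zfp36 -1.54, Egr1 -1.10) and 0 and 0 in pre-HCs.

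The glucose targets were also used to order single cells, after the levels had been seen. The 1964 chondrocytes were put in 4 bins of 491 by the summed level of the 26 targets, none of which is a member. From the lowest to the highest bin the median sum went from 4420 to 15920 CPM, the median depth from 16058 to 25021 UMIs and the median mitochondrial share from 5.21% to 2.78%. Egln1 was 48.1 CPM (43.8 to 52.7) in the lowest bin and 301 CPM (291 to 310) in the highest, a 6.15-fold difference (log2 ratio 2.62, 2.50 to 2.79). Egln3 was 2.32 and 11.8 CPM (1.95, 1.70 to 3.07), and both were called higher, where 2.41% of 7639 genes were. Epas1, at 18.8 and 6.66 CPM (-1.37), was called lower, where 11.1% were, a call that was lost without the vessel-marker cells (-0.61) or without doublets (-0.40). Hif1a was 262 and 249 CPM, Arnt 19.4 and 16.9, Vhl 10.8 and 10.9, Egln2 31.5 and 19.0 and Ddit4 27.9 and 21.8 CPM, all within 2-fold. Of the highest bin 148 cells (30.1%) were unstaged chondrocytes, and 411 chondrocytes (20.9%) lay within 10% of its cut.

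The Egln1 difference was present within single stages. In maturing chondrocytes, which hold no unstaged cells, it was 51.2 against 225 CPM (log2 ratio 2.12, 1.91 to 2.37) between the lowest and the highest bin of 199 cells each, with Egln3 at 2.20 against 11.2 CPM (1.93) and Epas1 at 32.2 against 6.27 CPM (-2.19), where 1.97% of 7403 genes were called higher and 6.98% lower. The Epas1 ratio was -1.41 without the vessel-marker cells and -0.61 without doublets. Hif1a was 270 against 231 CPM in these cells. In pre-HCs Egln1 was 71.4 against 262 CPM (1.86, 1.68 to 2.07) and was the 1 member called, where 1.98% of 6908 genes were higher and 3.89% lower, and Hif1a was 216 against 247 CPM. Egln3 was 0.765 against 9.84 CPM in these bins (2.62, 2.02 to 6.03), just under the 10 CPM limit, and so was not compared. With pre-HCs ordered by the other HIF targets, Egln3 was called higher (2.61), where 110 of 6874 genes were. Outside cartilage the differences were smaller. In osteogenic cells Egln1 was 46.9 against 65.1 CPM (0.47). In vessels no member was called, where 196 of 8399 genes were called higher and 328 lower. Epas1 was 622 against 405 CPM there, and Ddit4 67.7 against 67.3 CPM. Ordered by the other HIF targets instead, chondrocytes gave 51.4 against 307 CPM for Egln1 (2.56) and 1.49 against 13.3 CPM for Egln3 (2.52), and vessels 45.9 against 91.9 CPM for Ddit4 (0.99) and 177 against 286 CPM for Hif1a. Across cells of chondrocytes, Egln1 and Egln3 thus went with the level of HIF target transcripts, while the Hif1a, Arnt and Vhl levels differed by less than 2-fold between the bins. Ddit4, the other known target among the members, did not rise with them. Its log2 ratio was -0.34 (-0.61 to -0.11) by the glucose targets and -0.39 (-0.66 to -0.16) by the others. Egln2 was also lower, at -0.70 and -0.62. The part of depth and mitochondrial share, which moved with the bins, was not tested.

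**Figure D5:**
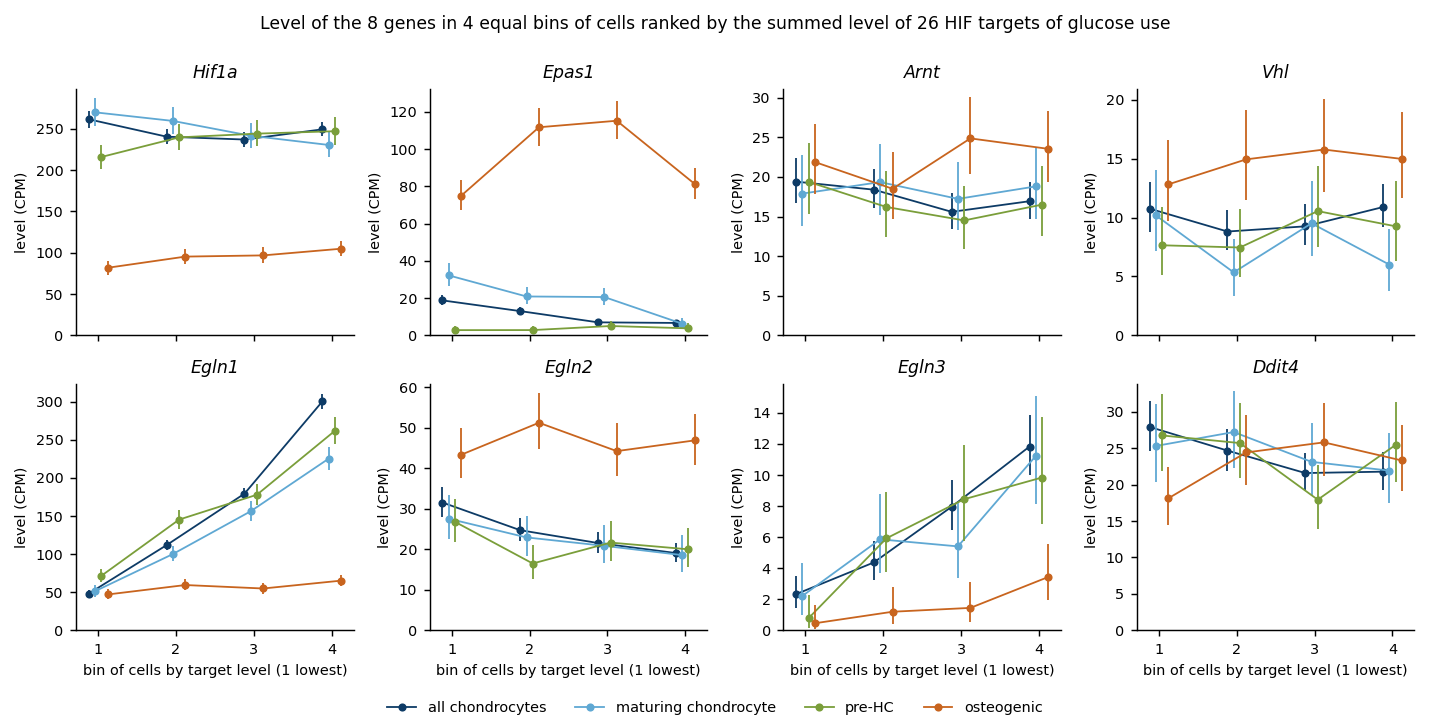
Level of each gene (CPM, y axis) in 4 equal bins of cells ordered by the summed level of 26 HIF targets of glucose use (x axis), for all chondrocytes, maturing chondrocytes, pre-HCs and osteogenic cells; bars are exact 95% counting intervals. Egln1 climbs from 48.1 to 301 CPM over all chondrocytes and also within maturing chondrocytes and pre-HCs, while Hif1a stays nearly level.

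The genes most like each member were found from the Pearson correlation of log2(CPM + 10) over the 33 clusters of at least 50 cells, all from 1 library. Epas1 had the closest matches, Adgrf5 (0.96), Tspan12 (0.95) and Kitl (0.95), of which Adgrf5 is also a vessel marker and Kitl a marker of stromal progenitors in the lists used to name classes. Egln1 was most like Ntan1 (0.92), Scd2 (0.90) and Impad1 (0.90), and Hif1a like Mbnl2 (0.88), Nfat5 (0.88) and Nfe2l1 (0.87). Arnt came closest to Tax1bp3 (0.85), Ptpra (0.83) and Csnk1e (0.83), and Egln2 to Lgals8 (0.84), Xpo6 (0.83) and Snapc5 (0.82). The low genes Vhl (Ist1 0.75, Zc3h7a 0.75, Pnpla8 0.74) and Egln3 (Cobll1 0.71, Bbx 0.68, Ywhaq 0.68) and also Ddit4 (Klk8 0.75, Cdk12 0.73, Etnk1 0.73) had no match above 0.75. Between members the correlation was 0.65 for Hif1a and Egln1, 0.60 for Egln1 and Egln3, 0.35 for Hif1a and Epas1, and -0.48 for Egln1 and Egln2.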

How the data were processed

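Cells of the digested tibiae were captured with the 10x Genomics droplet method, and the authors made the deposited counts, whole numbers of UMIs per gene and barcode, with Cell Ranger 3.1.0 against mm10. The sources used here do not give the annotation release. Seurat 3 was used in the study, whose minimum of 1600 genes per cell and cut of 14 WPRE UMIs were taken. Barcodes were kept here with at most 10% mitochondrial and 50% ribosomal protein UMIs, scaled to 10000 and clustered by Leiden (resolution 1, 0.3 for mixed clusters) on 30 components of 2000 variable genes, without the members and the pathway lists, in scanpy 1.11.5 (Python 3.11.15, scipy 1.17.1, igraph 0.11.9). Clusters were named from 27 marker lists by the list genes among their 10 leading genes, with at least 3 genes of the list detected. Where lists had only 1 leading gene, as for HCs and maturing chondrocytes, the list whose genes stood highest on average was taken. Col2a1-rich clusters were called cycling where over 50% of cells had Top2a, or unstaged where no list fitted. Clusters with 20% or more doublets stayed unnamed. Scrublet marked 588 of 14181 barcodes (4.15%) as doublets, of which 460 were among the cells kept. Marked cells in named clusters stayed in their classes. Immune cells, which the study had set aside, were kept. The 4 entries are 1 library and were counted as 1 sample, so no test was run; the ratio step was tested on simulated data.

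The members and gene lists were chosen with earlier results of these data known. The naming rule, the comparison of unstaged chondrocytes, single clusters, bins of cells, centring and the removal of vessel-marker cells were chosen after seeing the data. All members were named, and of each list at most 4 called genes in each direction, by size of ratio, with the 3 genes most like each member. The alternatives changed the filters, the clustering, the doublets, the added CPM and the low-level filter. The free RNA was not removed.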

Additional observations from a re-analysis of the deposited data

Results flagged for a closer look

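The matrix also held 98 added sequences with 22535 UMIs over all barcodes, of which WPRE and tdTomato were used above. Among the cells kept, the sequence labelled CRE had 4 UMIs and that labelled EGFP 58 UMIs. They are given because both counts exceed 3, the upper limit that an observed count of 0 would allow for the expected count. For CRE the margin is 1 UMI over 8255 cells, and neither sequence entered a comparison.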

How the results depend on the processing

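With 1 library no replicate could be left out. No paired analysis was possible because all cells came from 1 library of 1 animal. No called ratio changed sign under any alternative run. Of 1131 ratios recomputed for single genes, 919 lay within the counting interval of the main ratio and 212 outside it. For 1087 ratios between bins of cells these numbers were 985 and 102. The intervals leave out the added 1 CPM, so the main ratio of a low gene can lie outside its own interval. At 50 CPM, a limit that changes no ratio, 3 of 81 single-gene ratios were outside for this reason. The 3-member counts of vessels, leukocytes and erythroid cells changed by at most 1 member in any setting. At 50 CPM Epas1 dropped out for leukocytes and erythroid cells, since it was below that limit there and in the chondro-osteogenic cells (34.0 CPM). The counts of 0 in both HC-derived comparisons held in every setting. For the highest class of a gene, only classes of at least 50 cells were counted. The 22 T or NK cells were thus left out, and the main highest class was pericytes for Ddit4 and unstaged chondrocytes for Egln3. Of the 8 genes, 5 kept their highest class at 1000 genes per cell, 1 at 5% and 5 at 20% mitochondrial UMIs. The numbers were 3 at resolution 0.6 and 4 at 1.5. Basophil or mast cells and T or NK cells reached 50 cells in some of these settings. The unstaged chondrocytes were no class of their own at 1000 genes or 5%. The count of members called in pre-HCs against maturing chondrocytes went from 1 to 0 at 1000 and 2000 genes, 20% mitochondrial UMIs, resolution 1.5, with pathway genes among the variable genes, without doublets, at 50 CPM and without vessel-marker cells. In HCs against pre-HCs it went from 1 to 2 at 1000 genes, 5% mitochondrial UMIs, as a mean over cells and after centring, by Egln1, and to 0 at 50 CPM. In immature Obs against HCs it went from 2 to 1 at 1000 genes, 20% mitochondrial UMIs, resolution 0.6, 3000 variable genes, with pathway genes, without doublets, as a mean over cells and with 10 CPM added. In mature against immature Obs it went from 1 to 2 without doublets, by Vhl (-1.05). In unstaged chondrocytes against pre-HCs it went from 2 to 1 with 3000 variable genes (Epas1 in place of Egln1 and Egln3), with 10 CPM added and at 50 CPM (Egln1 alone). The cause of these moves was not tested. Centring also changed the share of higher genes among those called in HC-derived mature Obs from 68.8% to 51.5%. Genes under 10 CPM (Egln3 in most classes, Epas1 in blood cells) were limited by depth.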
